A study of Mus musculus with 32 samples.

Results

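The genes examined were 7 genes of B cells and plasma cells, Jchain, Iglv1, Cd79a, Cd79b, Ms4a1, Pou2af1 and Blnk, among 21073 genes measured on 32 Agilent arrays of mouse liver RNA. The 7 members were chosen on measured values of the same arrays, because Jchain and Iglv1 were among the genes lowest relative to MCD when mice on that diet received Fc-GLP-1. That reason names no time relative to partial hepatectomy (PH), so M+Fc-GLP-1 against MCD is described for these genes both before and after PH, with no test. Member names stood on 8 probes, of which 7, 1 per gene, were bright enough to be kept. A second Cd79a probe, well above background on at most 2 arrays of a group, was not kept.

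All livers came from male C57/BL6 mice that were 8 weeks old when the diets began, with 4 independent livers in each of 8 groups. Before PH, mice had been fed for 3 weeks with a standard chow diet (C) or a methionine and choline deficient diet (MCD), which produces steatohepatitis. Drug was given for the last 2 of these weeks in the groups M+Fc-GLP-1, on the deficient diet, and C+Fc-GLP-1, on chow, whereas C and MCD mice received saline. The same 4 arms were sampled 2 weeks after 70% PH, with diet and treatment continued, so these arrays hold only mice that survived the surgery. Fc-GLP-1 is an analogue of the gut hormone GLP-1 fused to the Fc part of a human IgG4 antibody. The source names of the treated samples give Fc-GLP-1, while their growth protocol, and for C+Fc-GLP-1 after PH the source name as well, describes an agonist with dual action, on GLP1R and GCGR, dosed at 4.4 mg/kg/day every other day. The names used here do not settle that conflict. Livers before PH were the tissue removed at surgery, and whether the same mice were sampled again is not given in the labels.

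B cells recognise antigen through a surface immunoglobulin that signals by way of the Cd79a and Cd79b chains, and the adaptor Blnk carries that signal onward. After activation some B cells become plasma cells, which lose surface proteins such as Ms4a1 (CD20) and secrete large amounts of antibody. Liver contains few B cells, and IgA secreted by plasma cells is carried across epithelial cells, including bile duct cells and rodent hepatocytes, by the receptor Pigr.

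Levels are log2 signal intensities minus the 75th percentile of the same array, so 0 marks that percentile and a difference of 1 is a doubling. A gene was called where the adjusted p of limma, over all 21073 genes, was under 0.05. Jchain encodes the peptide that joins IgA and IgM units and is made in bulk by plasma cells, and Iglv1 belongs to the lambda light chain locus. Members were also described without a test wherever MCD or M+Fc-GLP-1 before PH was a group compared. The same was done for Jchain and Iglv1 in M+Fc-GLP-1 versus C+Fc-GLP-1 after PH.

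Before PH, Jchain was at 2.77, 1.52, 3.15 and 2.87 in the MCD livers and at -0.93, -3.14, -4.16 and -2.62 in the M+Fc-GLP-1 livers. In the chow groups it was at 0.01, 1.88, -0.15 and 0.26 in C and at -1.05, -1.32, -1.11 and -0.28 in C+Fc-GLP-1. Every MCD liver lay above every drug-treated liver of either diet, and replicate 2 was the highest of the C group and the lowest of the MCD group, where the groups overlapped. The mean difference of M+Fc-GLP-1 from MCD was -5.29 (SE 0.64), a 39.1-fold lower signal, with M+Fc-GLP-1 well above background on 2 of its 4 arrays. MCD exceeded C by 2.07 (SE 0.64), 2 groups on 1 slide. Both treated groups before PH were on another slide. Slide and drug thus cannot be told apart in any difference of a treated from an untreated group before PH, for this or any other gene.

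For Iglv1 the MCD livers before PH gave 3.04, 0.21, 2.86 and 2.03, and the M+Fc-GLP-1 livers -2.83, -2.58, -1.81 and -1.64. The C livers gave -0.88, -0.07, -0.84 and -0.80, and the C+Fc-GLP-1 livers -0.95, -1.41, 0.21 and -1.49. All 4 MCD livers stood above all C livers, all M+Fc-GLP-1 livers stood below every other liver before PH, and MCD replicate 2 was again the lowest of its group. That array was also the lowest of its group in mean level over macrophage and Kupffer cell genes (2.89), neutrophil genes (-1.07) and genes common to all leukocytes (0.31). Leukocyte means were 1.44, 0.31, 0.91 and 1.27 in MCD and 0.17, 0.04, -0.84 and -0.08 in M+Fc-GLP-1 before PH, without overlap, and their part in the Jchain and Iglv1 values was not tested. The difference of M+Fc-GLP-1 from MCD was -4.25 (SE 0.59) and that of MCD from C was 2.69 (SE 0.59). In bulk liver RNA, fewer cells of a type and less RNA per cell cannot be told apart.

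The other 5 members did not share that size of difference. M+Fc-GLP-1 before PH differed from MCD by -0.85 for Cd79b, -0.71 for Pou2af1, -0.68 for Blnk, 0.18 for Cd79a and 0.31 for Ms4a1. The difference between the drug's effects on the 2 diets, described for the same reason without a test, was -3.85 (SE 0.91) for Jchain, -3.99 (SE 0.83) for Iglv1 and -2.60 (SE 0.56) for Blnk. C and MCD shared 1 slide before PH and the treated groups another, so a constant difference between these slides cancels in that value.

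**Figure D1:**
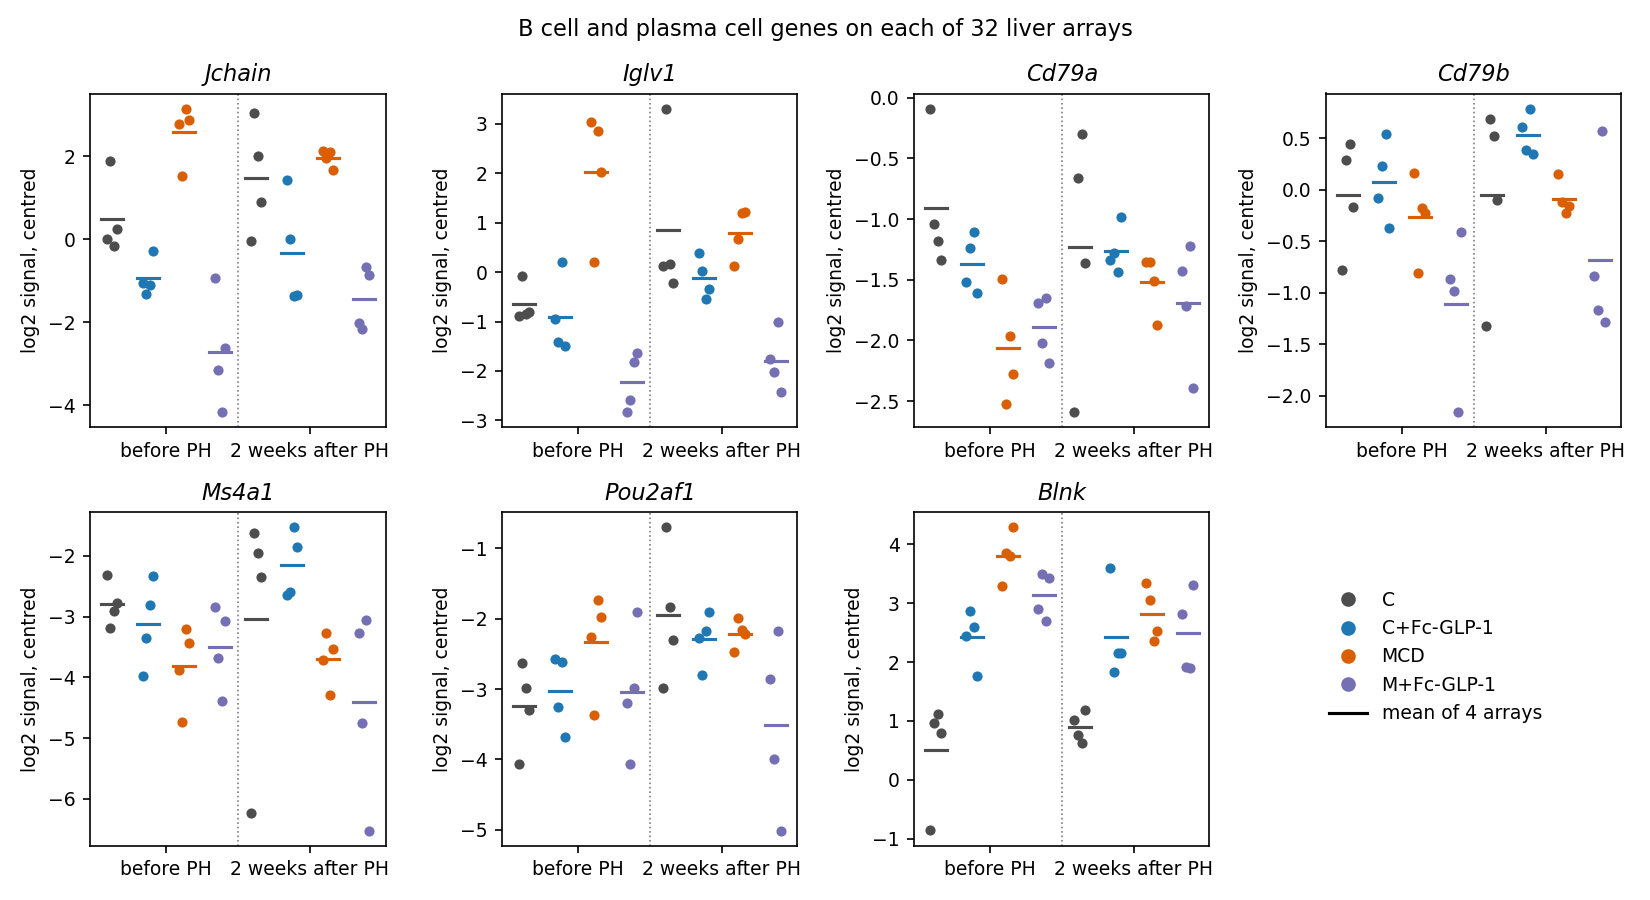
Level of each of the 7 members on each of the 32 arrays, in log2 signal minus the 75th percentile of the array. Dots are arrays coloured by diet and drug, bars are means of 4 arrays, and each panel places the groups before PH beside those 2 weeks after PH; Jchain and Iglv1 separate MCD from M+Fc-GLP-1 at both times, while Blnk separates untreated chow livers from all others.

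Across the other comparisons the members were called as follows. For M+Fc-GLP-1 versus C+Fc-GLP-1 after PH, 2 of 7 members were called, both lower, where 12.8% of all genes were. In MCD versus C after PH 1 of 7 was called, higher, against 12.1% of all genes. In C+Fc-GLP-1 versus C, 1 of 7 was called before PH and 1 of 7 after PH, both higher, where 2.11% and 2.06% of genes were called. No member was called by limma in C after versus before PH (14.0% of genes called, 2 members at unadjusted p under 0.05) or in C+Fc-GLP-1 after versus before PH (0.835% of genes called, 0 members at unadjusted p under 0.05).

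**Figure D2:**
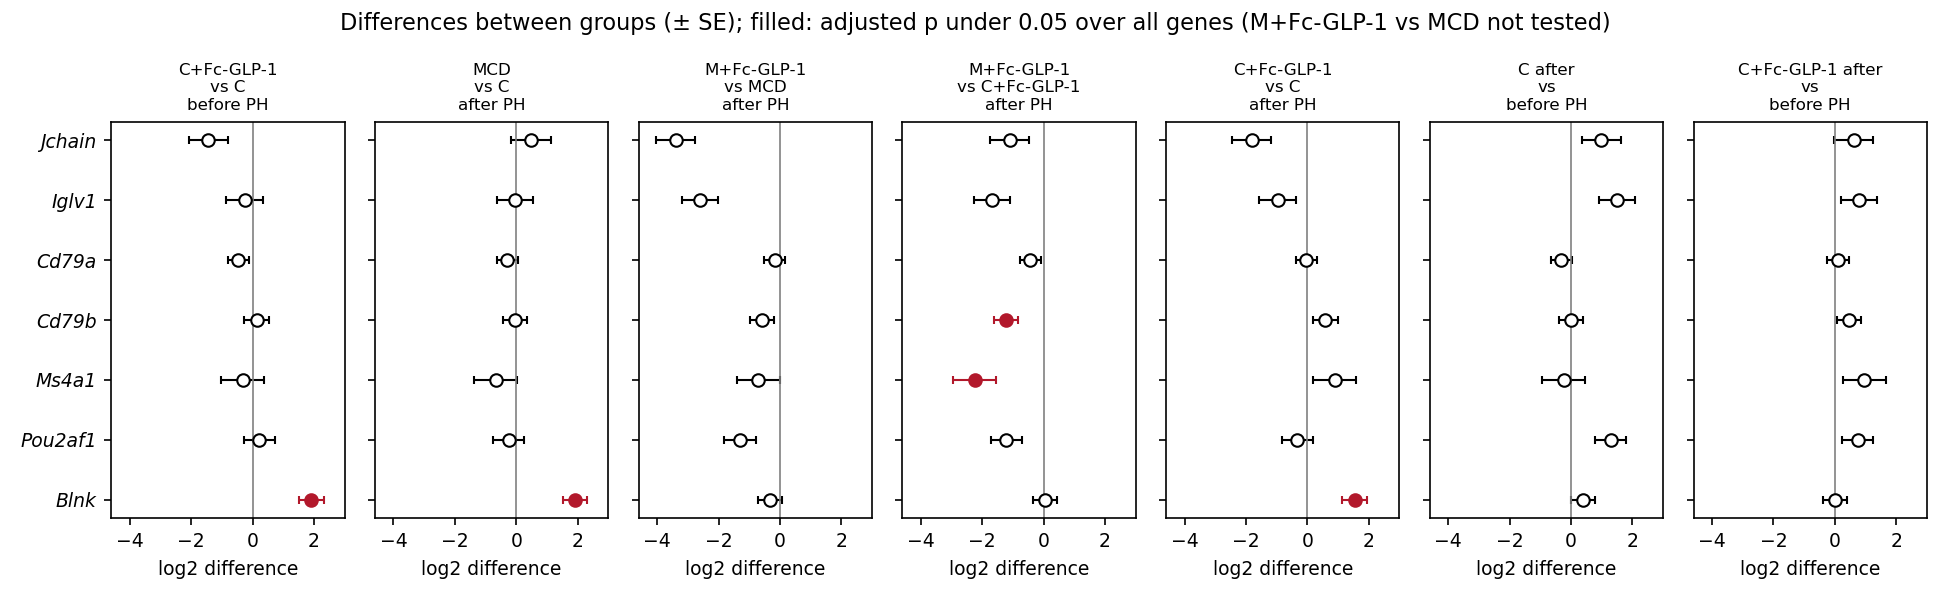
Log2 difference of each of the 7 members in each of 7 comparisons, on an axis in log2 units with bars of 1 SE from the fit. Filled red points have an adjusted p under 0.05 over all genes, and M+Fc-GLP-1 versus MCD after PH is drawn as a description; Cd79b and Ms4a1 pass in M+Fc-GLP-1 versus C+Fc-GLP-1 after PH, and Blnk in 3 comparisons with untreated chow.

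After PH, as before it, the secreted products were the members furthest apart between MCD and M+Fc-GLP-1. Jchain was at 2.14, 1.95, 2.10 and 1.68 in the MCD livers after PH and at -2.02, -2.17, -0.66 and -0.86 in the M+Fc-GLP-1 livers. Iglv1 was at 0.12, 0.68, 1.19 and 1.22 in MCD and at -1.76, -2.03, -1.0 and -2.43 in M+Fc-GLP-1. For both genes all 4 treated livers lay below all 4 untreated livers, and the MCD values of Jchain were the least spread of any group (SD 0.21). The difference was -3.40 (SE 0.64, 10.6-fold) for Jchain and -2.61 (SE 0.59, 6.09-fold) for Iglv1. Over 15 alternatives, including each array left out in turn, Jchain lay between -3.66 and -3.15 and Iglv1 between -2.87 and -2.02. MCD and M+Fc-GLP-1 after PH were on different slides, scanners and scan days, and slide and group cannot be told apart there.

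On chow after PH neither gene was called with the drug. Jchain was at -0.03, 3.05, 2.02 and 0.91 in C and at 1.42, 0.01, -1.36 and -1.35 in C+Fc-GLP-1, and Iglv1 at 0.13, 3.31, 0.17 and -0.21 in C and at 0.38, 0.02, -0.55 and -0.34 in C+Fc-GLP-1. The groups overlapped for both genes, and C replicate 2 was the highest array of either. The differences of C+Fc-GLP-1 from C did not pass in limma, at -1.81 for Jchain (adjusted p = 0.145, 2 of 4 arrays below all C arrays) and -0.97 for Iglv1 (adjusted p = 0.471, 2 of 4 arrays below). Over 15 alternatives, including each array left out, the difference ran from -1.33 to -0.15 for Iglv1 and from -2.39 to -1.29 for Jchain. The size of the Iglv1 difference was thus not settled. Before PH, Jchain in C+Fc-GLP-1 lay below all C livers on 4 of 4 arrays, yet the difference of -1.44 did not pass (limma adjusted p = 0.226).

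Between the treated groups after PH, which shared 1 slide, all 4 Iglv1 values of M+Fc-GLP-1 lay below those of C+Fc-GLP-1. The difference was -1.68 (SE 0.59), and over its alternatives it ran from -1.95 to -1.19. Jchain differed by -1.11 (2 of 4 arrays below). Both are descriptions, because the reason for choosing these 2 genes names no time and may rest on these M+Fc-GLP-1 values. The test of whether the drug's effect differed between diets after PH called 0 of 21073 genes in limma, with 1835 genes at unadjusted p under 0.05. Its values, described, were -1.59 (SE 0.91) for Jchain and -1.63 (SE 0.83) for Iglv1. C and MCD after PH were on different slides, so a slide difference does not cancel in these values as it does before PH. An effect on MCD but not on chow was therefore not shown after PH.

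In order of their group means, Jchain levels ran from MCD before PH (2.58) through MCD after PH (1.97), C after PH (1.49), C before PH (0.50), C+Fc-GLP-1 after PH (-0.32), C+Fc-GLP-1 before PH (-0.94) and M+Fc-GLP-1 after PH (-1.43) to M+Fc-GLP-1 before PH (-2.71). Iglv1 ran from 2.04 in MCD before PH to -2.21 in M+Fc-GLP-1 before PH. Neighbouring groups in either order overlapped, while the untreated MCD groups did not overlap with the M+Fc-GLP-1 groups.

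The probe named Iglv1 is shown because its target is less certain than its name. It has 60 bases, lies at chr16:19061905-19061964 on the minus strand in mm9, and the array's annotation ties it to 4 clones of lambda chain mRNA. Whether it reads a variable or a constant segment of the locus was not settled here.
Iglv1 probe: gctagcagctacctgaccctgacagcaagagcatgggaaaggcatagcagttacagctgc

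The wider immunoglobulin loci were read by 170 probes in the files, of which 73 were kept, the Iglv1 probe among them. These probes share sequence and are not independent, the selection was widened after probe names were seen, and a probe kept only through the group where it is bright had to differ. They follow the genes that chose the members, so M+Fc-GLP-1 versus MCD after PH, where 6.14% of kept probes were called, is a description for them. Their median difference there was -2.33, and 67 of the 73 were measured lower. Under filters chosen after seeing the data, the median was -2.40 over 53 probes kept through a chow group and -1.93 over 19 that were well above background on all arrays of both groups compared. The largest difference was at IgG1 heavy chain constant, -5.20 (SE 0.98, lower in 4 of 4 arrays, well above background on 3 of the treated arrays). IgG1 constant was at 2.21, 2.09, 2.43 and 2.09 in MCD after PH and at -3.74, -3.34, -1.16 and -3.75 in M+Fc-GLP-1 after PH. The groups were far apart, and replicate 3 was the highest of the treated arrays. A second kept probe of the same transcript differed less, with means of -0.10 in MCD after PH and -3.25 in M+Fc-GLP-1 after PH, also without overlap.

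A probe taken as IgA heavy chain constant, chosen after its values were seen, gave 6.09, 6.29, 6.14 and 6.10 in MCD after PH and 1.83, 2.38, 3.03 and 2.92 in M+Fc-GLP-1 after PH. The array's gene name for this probe is Igh-VJ558, so whether it reads IgA was not settled here. The difference of this probe was -3.62 (SE 0.56). IgA is the isotype that pairs with the J chain in mucosal antibody. Before PH the median of the 73 probes was 1.69 in MCD versus C and -2.36 in M+Fc-GLP-1 versus MCD, both descriptions of the groups that chose the members.

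M+Fc-GLP-1 versus C+Fc-GLP-1 after PH is likewise a description for these probes, because the choice of members may rest on these M+Fc-GLP-1 values. There 12.3% of kept probes were called, and the 73 had a median difference of -0.78, with 69 measured lower. The largest difference was at IgM heavy chain constant, which was at 1.28, -0.62, -1.04 and -0.70 in C+Fc-GLP-1 and at -2.24, -2.85, -2.16 and -2.94 in M+Fc-GLP-1. It was lower by 2.28 (SE 0.58, lower in 4 of 4 arrays), and the arrays of the 2 groups did not overlap. The other comparisons called few immunoglobulin probes. In C after versus before PH 5 of 73 were called, all higher, by 1.07 to 2.08 against 13.1% of kept probes. These 5, named after their values were seen, were Ighv10-3, Ighv1-61, a second heavy chain clone of the J558 family, a C57BL/6 heavy chain clone and an anti-DNA antibody light chain. In MCD versus C after PH 1 of 73 was called, against 11.6% of kept probes, a heavy chain variable region at -1.64 that was also named after its value was seen. Limma called 0 of 73 in C+Fc-GLP-1 versus C before PH (1.94% of kept probes called), in C+Fc-GLP-1 versus C after PH (1.76%) and in C+Fc-GLP-1 after versus before PH (0.698%).

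**Figure D3:**
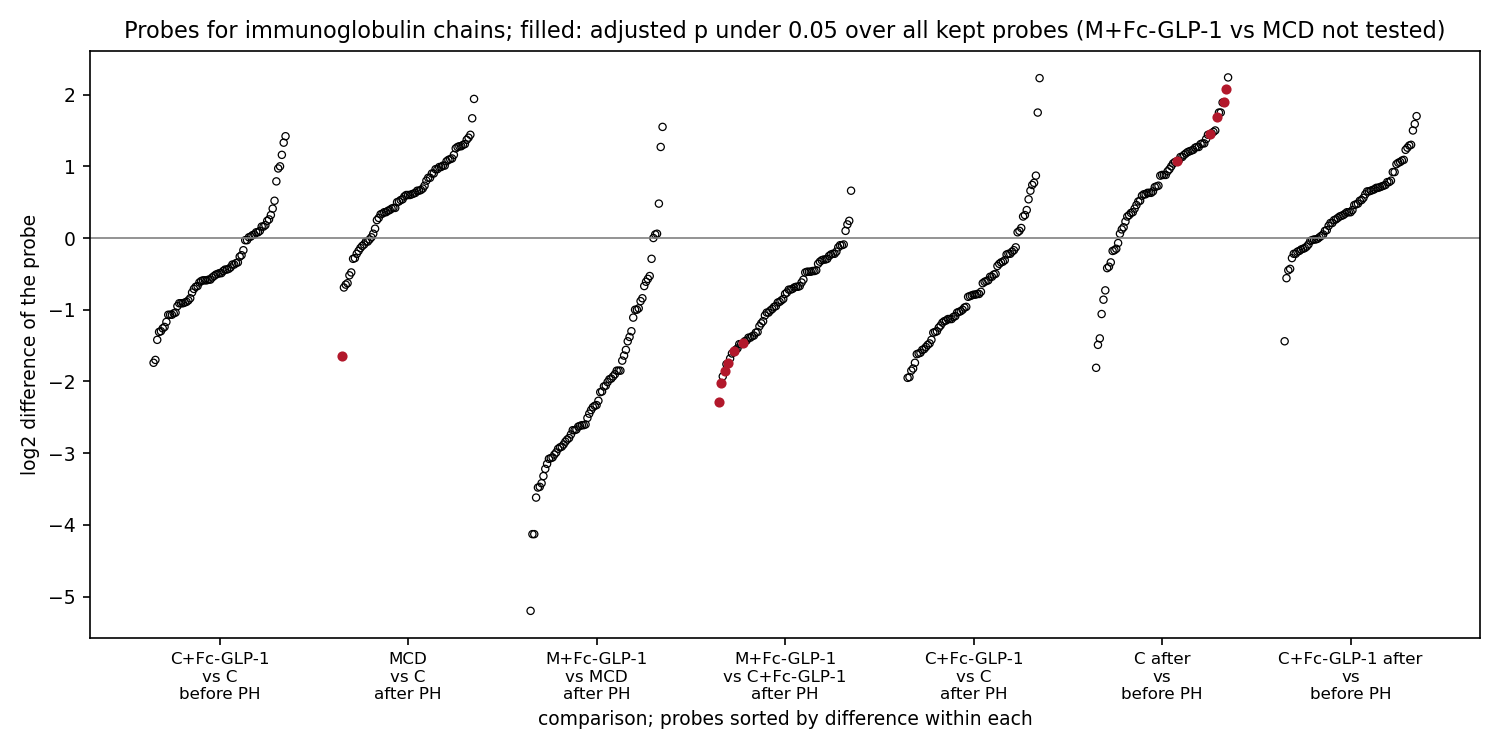
Log2 difference of each of 73 kept immunoglobulin probes in each of 7 comparisons, sorted within a comparison. Each point is 1 probe, and filled points have an adjusted p under 0.05 over all kept probes. M+Fc-GLP-1 versus MCD after PH is drawn unfilled as a description, and 67 of 73 points there lie below 0. Filled points in M+Fc-GLP-1 versus C+Fc-GLP-1 after PH are also read only as a description.

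The plasma cell program covers the regulators and secretory machinery of antibody production. Of its 10 tested genes 1 fell in M+Fc-GLP-1 versus MCD after PH, where 6.5% of all genes were called, with a median over the 10 of -0.70, where the median of all genes was 0.05. That gene was Mzb1, a chaperone of antibody assembly, at -1.36 ± 0.16 (SD, n = 4) in MCD and -2.98 ± 0.18 (SD, n = 4) in M+Fc-GLP-1 (difference -1.62, limma adjusted p = 0.0206). Like the other lists, this one was chosen with earlier results of these data known. The call thus gives no independent support for the Jchain and Iglv1 differences in that comparison. Another 1 of 10, below the 12.8% of all genes called, fell in M+Fc-GLP-1 versus C+Fc-GLP-1 after PH, Derl3, a factor of protein degradation at the endoplasmic reticulum, by 2.87 (SE 0.52, limma adjusted p = 0.000295). Derl3 is not particular to plasma cells, and its level was 2.68 ± 0.47 (SD, n = 4) in C+Fc-GLP-1 after PH and -0.19 ± 0.30 (SD, n = 4) in M+Fc-GLP-1. In C after versus before PH, where 14.0% of genes were called, 1 of 10 rose, Tnfrsf13b, a receptor for B cell survival factors, by 1.49 on the log2 scale (limma adjusted p = 0.00168). Tnfrsf13b was named after its value was seen. No gene of the list was called in the other 4 comparisons.

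Of the surface members, Cd79b and Ms4a1 were called in another comparison and Cd79a was not. Cd79b, a signalling chain of the antigen receptor, was at 0.61, 0.39, 0.79 and 0.35 in C+Fc-GLP-1 after PH and at -0.84, -1.17, 0.57 and -1.28 in M+Fc-GLP-1 after PH. Ms4a1, the B cell surface protein CD20, was at -2.64, -2.60, -1.53 and -1.85 in C+Fc-GLP-1 and at -3.27, -4.75, -3.06 and -6.52 in M+Fc-GLP-1. For Cd79b replicate 3 of the treated MCD livers fell within the chow range and the other 3 lay below it, while for Ms4a1 the groups did not overlap. In limma Cd79b fell by 1.22 (SE 0.40, 2.32-fold, adjusted p = 0.0431, lower in 3 of 4 arrays) and Ms4a1 fell by 2.24 (SE 0.70, 4.73-fold, adjusted p = 0.0326, lower in 4 of 4 arrays). Ms4a1 was well above background on 4 arrays of C+Fc-GLP-1 and on 2 of M+Fc-GLP-1.

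Neither call was firm. Fitted on the 8 arrays of this slide alone, the adjusted p of limma was 0.0745 for Cd79b (-1.22) and 0.0602 for Ms4a1 (-2.24), and Cd79b passed in 4 of 15 alternatives and Ms4a1 in 9. Without M+Fc-GLP-1 replicate 4 the Ms4a1 difference was -1.54 (limma adjusted p = 0.16), and over its alternatives the difference ran from -2.69 to -0.72 and the adjusted p from 0.0176 to 0.16. Without M+Fc-GLP-1 replicate 3, Pou2af1 was called in limma at -1.67 (adjusted p = 0.0331) besides Cd79b and Ms4a1. Iglv1, as a description, was then at -1.95.

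Before PH, as a description, Cd79b in M+Fc-GLP-1 differed from C+Fc-GLP-1 by -1.19 (SE 0.40), with all 4 arrays below, nearly the size of the difference after PH. Cd79b had group means between -1.11 in M+Fc-GLP-1 before PH and 0.54 in C+Fc-GLP-1 after PH, and in M+Fc-GLP-1 versus MCD after PH it differed by -0.59 (3 of 4 arrays below). Ms4a1 had group means between -4.40 in M+Fc-GLP-1 after PH and -2.16 in C+Fc-GLP-1 after PH. Its lowest value among C livers after PH was -6.23 in replicate 1, beside -1.62, -1.96 and -2.35. Without that array MCD lay below C by a called difference of -1.72 (limma adjusted p = 0.037, against 0.567 to 0.92 in the other alternatives), compared with -0.66 with it. In MCD after PH, Ms4a1 was well above background on only 1 of 4 arrays, so the size of that difference is uncertain. C replicate 1 after PH was also the lowest array of its group for Cd79a (-2.59), Cd79b (-1.32) and Pou2af1 (-2.98). Its mean level over 8 macrophage and Kupffer cell genes, 5.39, was the highest of the 32 arrays, as was that over 6 leukocyte genes, 2.82, and its part in these values was not tested.

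Cd79a, the partner chain of Cd79b, ranged from -2.59 to -0.09 over the 32 arrays, and its group means from -2.06 in MCD before PH to -0.91 in C before PH. No tested comparison called it, and its largest difference was -0.46 in C+Fc-GLP-1 versus C before PH (limma adjusted p = 0.502, 2 of 4 arrays below). That comparison was called with other background correction and normalization (-0.92, adjusted p = 0.0121) and with the authors' normalized values (-0.89, adjusted p = 0.0254). As a description, all 4 MCD livers before PH lay below all 4 C livers for Cd79a, by -1.15, and for Ms4a1, by -1.02, where Jchain and Iglv1 were higher.

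The list of antigen receptor signalling genes had 15 of 18 genes tested. Of these, 6 of 15 fell and none rose in M+Fc-GLP-1 versus C+Fc-GLP-1 after PH, where 12.8% of all genes were called, with a median of -0.75 where all genes had -0.01. Among them the kinase Lyn fell by 1.96 (limma adjusted p = 0.00175), the scaffold Bank1 fell by 2.23 (adjusted p = 0.000846) and the inhibitory receptor Cd72 fell by 1.21 (adjusted p = 0.0297). In M+Fc-GLP-1 versus MCD after PH, against 6.5% of all genes, 3 of 15 fell, with a median of -0.76, namely Cd22 by 0.86, Lyn by 1.64 and Bank1 by 1.49 (limma adjusted p = 0.0193, 0.0169 and 0.0398). As for Mzb1, these calls give no independent support for the Jchain and Iglv1 differences.

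In the other comparisons Bank1 fell by 1.47 in MCD versus C after PH (limma adjusted p = 0.0258), 1 of 15, a share below the 12.1% of all genes called, and Fcgr2b, the inhibitory Fc receptor that sinusoidal endothelium also makes, rose by 1.02 in C+Fc-GLP-1 versus C after PH (adjusted p = 0.0296), 1 of 15 against 2.06%. In C after versus before PH, against 14.0% of all genes, 4 of 15 rose, Bank1, Plcg2, Cd72 and Syk, by 2.35, 1.88, 1.86 and 1.78. For this comparison the 4 genes were named after their values were seen. These C groups were on different slides, scanners and scan days, so slide and time cannot be told apart in any call of that comparison. The last 3 of these are also used by myeloid cells or other lymphocytes, and all 8 macrophage and Kupffer cell genes rose in the same comparison with a median of 2.06. Their part in it was not tested.

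Of the B cell identity genes, 13 of 18 were tested. Called in M+Fc-GLP-1 versus C+Fc-GLP-1 after PH were 3 of 13, against 12.8% of all genes, with a median of -0.73. The transcription factor Spib fell by 1.64 (limma adjusted p = 0.00854) and H2-Ob, a modulator of antigen loading, fell by 1.36 (adjusted p = 0.00535), whereas Ly6d rose by 4.25 on the log2 scale (adjusted p = 0.000654). In M+Fc-GLP-1 versus MCD after PH 2 of 13 fell, against 6.5% of all genes, with a median of -0.33, Pou2f2 by 1.31 and Cd37 by 0.95 (adjusted p = 0.0196 and 0.0291). These calls, too, give no independent support for the Jchain and Iglv1 differences. In MCD versus C after PH 3 of 13 were called, against 12.1% of all genes, with a median of -0.50. Ly6d rose by 4.03 on the log2 scale (limma adjusted p = 0.00143), Vpreb3 rose by 1.64 (adjusted p = 0.024) and H2-Ob fell by 1.23 (adjusted p = 0.0126). H2-Ob was well above background on 1 of 4 MCD arrays after PH. The log2 of the summed signal of the 13 genes, of which Ly6d was the brightest, was 6.44, 2.87, 2.65 and 3.67 in C after PH. In MCD after PH it was 6.23, 6.78, 6.56 and 6.49, so C replicate 1 lay within the MCD range. Ly6d is also made outside the B lineage, and it did not move with Cd79b or Ms4a1. Among 4 tested genes of B cell precursors, only Dntt was called in the following comparisons, 1 of 4 in each. It rose by 2.19 in C+Fc-GLP-1 versus C before PH, against 2.11% of all genes, and by 3.71 in MCD versus C after PH, against 12.1%. It rose by 1.79 in M+Fc-GLP-1 versus C+Fc-GLP-1 after PH, against 12.8%, and fell by 1.27 in M+Fc-GLP-1 versus MCD after PH, against 6.5%. In C after versus before PH 3 of 4 were called, where 14.0% of all genes were: Dntt rose by 1.27 (limma adjusted p = 0.0116), Il7r rose, at least 1.66-fold against a background bound (adjusted p = 0.0128), and Vpreb2 fell by 2.88 (adjusted p = 0.00777). These 3 genes were named after their values were seen.

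Pou2af1 encodes OCA-B, the B cell coactivator of octamer-binding factors at immunoglobulin promoters. It was dim, from -5.01 to -0.70 over the 32 arrays, and no comparison called it. Its group means were -2.21 in MCD after PH, -3.51 in M+Fc-GLP-1 after PH, -2.29 in C+Fc-GLP-1 after PH and -1.96 in C after PH. M+Fc-GLP-1 after PH differed from MCD by -1.30 (3 of 4 arrays below) and from C+Fc-GLP-1 by -1.22 (limma adjusted p = 0.117, 3 of 4 arrays below), and in both the exception was replicate 3. C after PH differed from C before PH by 1.29 (limma adjusted p = 0.0838, 3 of 4 arrays above all C arrays before PH). These sizes varied with the processing. Over the alternatives M+Fc-GLP-1 differed from MCD by -1.75 to -0.38 and from C+Fc-GLP-1 by -1.67 to -0.38, both after PH. The difference of C after from before PH ran from 0.42 to 1.63.

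Blnk followed another pattern, with low levels in untreated chow livers and high levels everywhere else. Before PH it was at -0.86, 0.97, 1.11 and 0.79 in C, at 2.45, 2.87, 2.60 and 1.77 in C+Fc-GLP-1, at 3.29, 3.85, 3.80 and 4.29 in MCD and at 2.90, 3.49, 2.70 and 3.43 in M+Fc-GLP-1. After PH it was at 1.01, 0.76, 0.63 and 1.18 in C, at 3.59, 1.83, 2.15 and 2.16 in C+Fc-GLP-1, at 3.34, 3.05, 2.35 and 2.52 in MCD and at 2.82, 1.91, 1.90 and 3.31 in M+Fc-GLP-1. The 8 untreated chow arrays, at most 1.18, lay below all the others, at least 1.77. Among the other 6 groups neighbours in order of mean overlapped.

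In limma Blnk rose by 1.92 in MCD versus C after PH (SE 0.40, 3.78-fold, adjusted p = 0.0018, higher in 4 of 4 arrays), a call kept in 15 of 15 alternatives. It also rose in C+Fc-GLP-1 versus C, by 1.92 before PH (SE 0.40, 3.78-fold, adjusted p = 0.0119, higher in 4 of 4 arrays) and by 1.54 after PH (SE 0.40, 2.9-fold, adjusted p = 0.0382, higher in 4 of 4 arrays). The call before PH was lost without C replicate 1 (1.46, adjusted p = 0.052) and with only the arrays compared (adjusted p = 0.0989), in a range from 0.00381 to 0.0989. The call after PH passed in 3 of 15 alternatives, with adjusted p from 0.0348 to 0.149, and with the replicate number as a block it was 0.0506. In all 3 comparisons the groups were on different slides, and slide and group cannot be told apart. As a description, C and MCD before PH shared 1 slide, and there Blnk was higher in MCD by 3.31 (SE 0.40) on 4 of 4 arrays.

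Between the treated groups after PH, within 1 slide, Blnk differed by 0.05 (limma adjusted p = 0.963). As descriptions, M+Fc-GLP-1 differed from MCD after PH by -0.33 (2 of 4 arrays below), and the difference between the drug's effects on the diets after PH was -1.87 (SE 0.56). Blnk is also made by macrophages. Mean levels over the 8 macrophage and Kupffer cell genes, of which Cd5l was the brightest, were 5.39, 4.26, 3.11 and 3.96 in C after PH and 4.80, 4.81, 4.41 and 3.73 in MCD after PH. Those ranges overlapped, and 0 of 8 of these genes were called in MCD versus C after PH. Before PH, where Blnk differed most, the mean levels were 4.44, 2.89, 3.84 and 4.21 in MCD and 1.62, 2.41, 2.32 and 2.35 in C, without overlap. In C+Fc-GLP-1 versus C before PH the macrophage and Kupffer cell genes had a median of 0.58 and 0 of 8 were called. Leukocyte means were -0.03 to 0.71 in C+Fc-GLP-1 and -0.75 to -0.21 in C before PH, without overlap. The part of macrophages or other leukocytes in the Blnk values was not tested.

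The promoters of Jchain and Blnk are shown as those of the secreted product that chose the members and of the adaptor called most often. Of the 7 members, 4 had a promoter in the RefSeq table for GRCm38.p6, and the 250 bases before the start were searched on both strands for the octamer ATGCAAAT (reverse ATTTGCAT) and the Ets core AGGAAGT (reverse ACTTCCT). Of 32851 promoters, 1.6% held the octamer and 7.69% the Ets core. Capitals mark the matches. Blnk, at chr19:40994222-40994471 on the minus strand, held 1 of each, 130 and 202 bases before the start. Jchain, at chr5:88527898-88528147 on the minus strand, had neither in this window, nor had Pou2af1, and Cd79a had 1 Ets core 55 bases before its start.
Jchain promoter: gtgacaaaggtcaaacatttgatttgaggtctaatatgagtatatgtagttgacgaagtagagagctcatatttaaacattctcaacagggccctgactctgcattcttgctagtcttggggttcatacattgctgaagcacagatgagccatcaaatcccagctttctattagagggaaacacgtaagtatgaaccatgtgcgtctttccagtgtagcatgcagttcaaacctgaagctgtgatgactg
Blnk promoter: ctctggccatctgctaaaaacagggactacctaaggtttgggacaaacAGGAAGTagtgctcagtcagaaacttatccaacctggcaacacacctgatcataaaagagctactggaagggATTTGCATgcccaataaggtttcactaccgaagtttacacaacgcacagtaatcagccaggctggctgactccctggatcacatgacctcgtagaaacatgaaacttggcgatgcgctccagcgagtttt

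Genes for ligands and antibody transport had 7 of 12 tested. Pigr, the receptor that carries J chain antibodies into bile, ran opposite to Jchain on MCD after PH. It was at 4.80 ± 0.57 (SD, n = 4) in MCD and 7.26 ± 0.43 (SD, n = 4) in M+Fc-GLP-1 after PH and rose by 2.47 on the log2 scale (SE 0.32, limma adjusted p = 3.45e-05). It also rose by 1.75 in C+Fc-GLP-1 versus C after PH (adjusted p = 0.0038), and fell by 1.43 in MCD versus C after PH (adjusted p = 0.00312) and by 1.58 in C after versus before PH (adjusted p = 0.00159). The B cell chemokine Cxcl13 rose by 4.13 on the log2 scale in MCD versus C after PH (SE 0.71, adjusted p = 0.000217), from -1.60 ± 1.89 to 2.53 ± 0.58 (SD, n = 4). It fell by 3.86 in M+Fc-GLP-1 versus MCD after PH (SE 0.71, adjusted p = 0.00149), to -1.33 ± 0.82 (SD, n = 4). These comparisons called 2 of 7 genes of the list each, where 12.1% and 6.5% of all genes were called, and C+Fc-GLP-1 versus C after PH called 1 of 7, against 2.06%. In C after versus before PH 2 of 7 were called, against 14.0%, the second being Il6 at 2.70, at least 3.27-fold higher against a background bound (adjusted p = 0.000756), and named after its value was seen. No gene of the list was called in M+Fc-GLP-1 versus C+Fc-GLP-1 after PH, whose groups shared a slide. In each comparison with a call from this list the groups were on different slides. In all of these but MCD versus C after PH, scanner and scan day differed too. Slide and group cannot be told apart in these calls. Tnfsf13b, the survival factor BAFF, was dim and was called in no comparison, with differences from -0.91 to 0.87. Ighm as a gene name was too dim to be tested.

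Markers of other cells moved with the antibody genes. Neutrophil genes fell in M+Fc-GLP-1 versus MCD after PH, 5 of 7, against 6.5% of all genes there, with a median of -2.52, and their mean level, with Csf3r the brightest gene, was 1.86, 2.38, 2.61 and 3.27 in MCD and 0.01, 0.02, 1.79 and -0.42 in M+Fc-GLP-1. Of the macrophage and Kupffer cell genes 2 of 8 fell, Adgre1 and Lyz2, with a median of -0.93 and mean levels of 4.80, 4.81, 4.41 and 3.73 against 3.04, 3.11, 3.51 and 3.46. Neither range overlapped between the groups. Of 6 genes common to all leukocytes, led in brightness by Cd52, 1 fell (Rac2), with a median of -0.69 and mean levels of 1.84, 1.42, 1.08 and 1.11 against 0.04, 0.26, 0.74 and 0.80. The T cell list had 0 of 8 called and a median of -0.10, the plasmacytoid dendritic cell list 1 of 7 (Ccr9, lower), the red blood cell list 1 of 4 (Slc4a1, lower) and the hepatocyte list, led by Alb, 0 of 6. The part of these cell types in the Jchain and immunoglobulin values was not tested.

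In M+Fc-GLP-1 versus C+Fc-GLP-1 after PH, where Cd79b and Ms4a1 were called, T cell genes were lower too. Of these genes 3 of 8 fell (Cd3d, Cd3g and Cd2), against 12.8% of all genes there, with a median of -0.77. Their mean level, with Cd4 the brightest gene, was -0.09, -0.61, -0.05 and -0.12 in C+Fc-GLP-1 and -0.83, -1.09, -0.85 and -1.39 in M+Fc-GLP-1, without overlap. Neutrophil genes had 0 of 7 called and a median of -0.25, macrophage and Kupffer cell genes 1 of 8 (Clec4f, lower) and a median of -0.94, plasmacytoid dendritic cell genes 3 of 7, 2 of them lower (Bst2 and Klk1) and 1 higher (Cox6a2), leukocyte genes 1 of 6 (Rac2, lower), red blood cell genes 1 of 4 (Alas2, lower) and hepatocyte genes 0 of 6. Mean levels of the macrophage and Kupffer cell genes were 3.57 to 4.68 in C+Fc-GLP-1 and 3.04 to 3.51 in M+Fc-GLP-1, also without overlap. The leukocyte genes had a median of -0.83. The part of T cells, of all lymphocytes or of other leukocytes in the Cd79b and Ms4a1 values was not tested. These named marker genes outside the B lineage were picked after their values were seen.

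**Figure D4:**
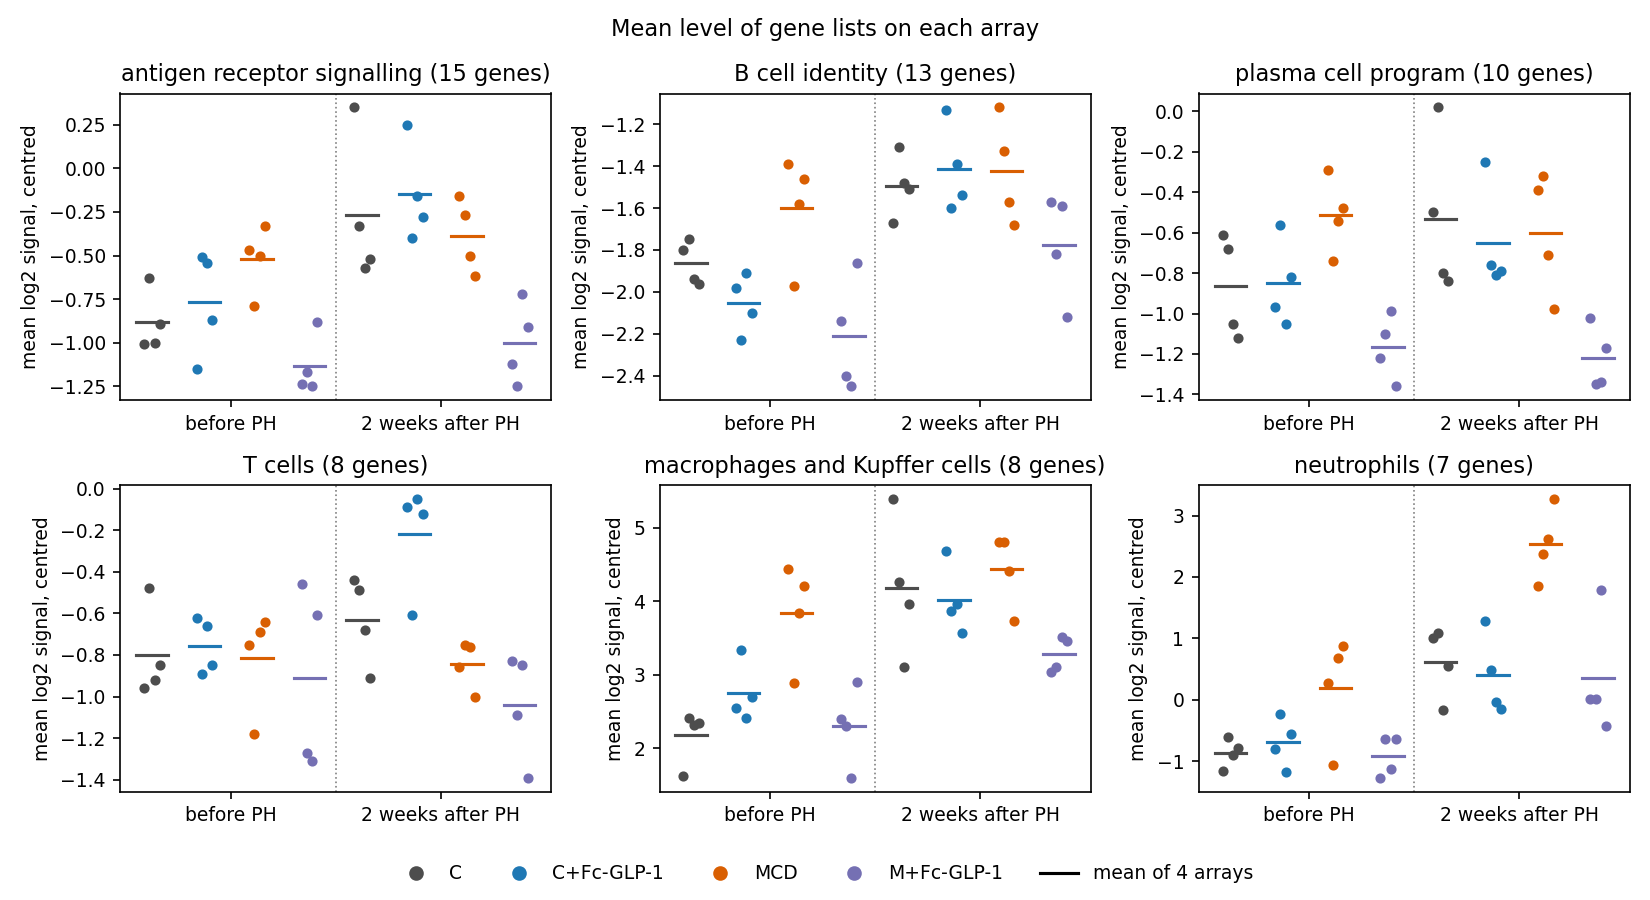
Mean level of 6 gene lists on each array, in log2 signal minus the 75th percentile of the array: antigen receptor signalling (15 genes), B cell identity (13), plasma cell program (10), T cells (8), macrophages and Kupffer cells (8) and neutrophils (7). Dots are arrays coloured by diet and drug and bars are means of 4; after PH the neutrophil mean lies at 1.86 or above in MCD and at 1.79 or below in M+Fc-GLP-1.

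The 3 genes nearest to a member over the 32 arrays, by Pearson r, were all immunoglobulin probes for Jchain and for Iglv1. These values are descriptions, since the arrays share diets, drug, slides and the choice of members, and r with group means removed follows each in parentheses. For Jchain they were the kappa constant region at 0.94 (0.74) and 2 kappa variable regions at 0.91 (0.71 and 0.74). For Iglv1 they were a non-functional heavy chain at 0.92 (0.77), a light chain variable region at 0.91 (0.83) and a heavy chain variable region at 0.91 (0.76). The kappa constant probe was at 5.20, 4.89, 4.80 and 4.37 in MCD after PH and at 1.71, 1.36, 1.55 and 0.95 in M+Fc-GLP-1 after PH. As for Jchain, no treated liver reached an untreated one, and the difference was -3.42 (SE 0.54).

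For Cd79b the genes near it included Fcmr, the IgM Fc receptor of B cells, at 0.85 (0.82) and a lambda J-C cluster at 0.80 (0.77), and for Ms4a1 they were Fcmr at 0.87 (0.90), Mup1 at 0.83 (0.85) and Mup2 at 0.82 (0.85). Mup1 and Mup2 are major urinary proteins made by hepatocytes, not by lymphocytes. For Cd79a they were a long intergenic RNA at 0.82 (0.76), Tlr9 at 0.82 (0.76) and Ccin at 0.81 (0.74). For Pou2af1 they were Tmem29 at 0.73 (0.59), G3bp2 at 0.72 (0.63) and Mzb1 at 0.68 (0.51). For Blnk they were 2 unnamed transcripts at 0.83 (0.59) and 0.81 (0.49) and Qpct at 0.80 (0.25), so the likeness to Qpct lay mostly between groups.

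Among the members themselves 21 pairs were correlated over the 32 arrays. As measured, r was highest for Jchain with Iglv1, at 0.84, which includes the differences between groups that chose these genes, followed by Iglv1 with Pou2af1 at 0.71 and Cd79a with Ms4a1 at 0.70, and lowest for Cd79a with Blnk at -0.66. With group means removed, Jchain with Iglv1 gave 0.42 (rho 0.37; 0.52 without the 2 arrays farthest from the median), so much of their likeness lay between groups. On that basis Cd79a with Ms4a1 gave 0.71 (rho 0.46; 0.51 without 2 arrays), Iglv1 with Pou2af1 0.70 (rho 0.70; 0.61), Cd79b with Pou2af1 0.70 (rho 0.60; 0.60), Cd79b with Jchain 0.53 (rho 0.47; 0.58) and Cd79a with Blnk -0.43 (rho -0.37; -0.51).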

How the data were processed

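RNA of 32 livers was read on 1-colour Agilent arrays of 62976 spots. Per the file headers, the deposited intensity values came from Feature Extraction 10.7.3.1 with spatial and multiplicative detrending and no separate background correction. The authors also deposited log2 values normalized with limma separately for the 16 arrays before PH and the 16 after PH (medians 6.48 and 6.8, background correction not given in the sources used here). Here the processed signal was taken as log2 minus the 75th percentile of 59305 non-control spots (209.4 to 778.4 on the linear scale), and spots of a probe were averaged. Of 55681 probes, 426 with outlier marks were dropped and 28937 that were well above background on all 4 arrays of a group were kept (36.2 to 69.1% of probes per array). Each of 21073 genes was read from its brightest probe that passed, and 27656 probes were named through RefSeq accessions. All 8 groups were fitted in limma 3.58.1 (R 4.3.3) with Benjamini-Hochberg adjustment, after the code was tested on simulated data. A fold given as "at least" sets the brighter group's mean against the lowest signal well above background.

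Members and lists were chosen with earlier results of these data known. A test of members and immunoglobulin probes in M+Fc-GLP-1 versus MCD after PH had been planned, and their values are given as a description instead. The same holds for Jchain, Iglv1 and the immunoglobulin probes in M+Fc-GLP-1 versus C+Fc-GLP-1 after PH. The lists were antigen receptor signalling, B cell identity, plasma cell program, B cell precursors, ligands and antibody transport, T cells, macrophages and Kupffer cells, neutrophils, plasmacytoid dendritic cells, all leukocytes, red blood cells, hepatocytes and the immunoglobulin loci. Named genes were the members, the 3 genes nearest to each by Pearson r, the called genes of the first 3 lists and of the ligand list in comparisons in which a member passed the threshold as planned (at most the 4 largest per list), Ighm, Pigr, Tnfsf13b and Cxcl13, and at most the 3 largest immunoglobulin changes; exceptions are marked in the text, and some results under this rule are left out. Alternatives were normexp (offset 50) with quantile normalization, median centring, the authors' values, dim probes left in, a gene's kept probes averaged, only the arrays compared, the replicate number as a block and each array left out. A percentile over averaged probes and immunoglobulin counts under other filters were added after seeing the data.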

Additional observations from a re-analysis of the deposited data

Results flagged for a closer look

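Within single groups of 4 arrays, 56 sets of member values were looked at for a sample far from the others, and chance marks about 1 in 20 such sets. In C before PH the Iglv1 level of replicate 2, -0.07, stood above the other 3 by 0.897 of the group's range. In C after PH the Iglv1 level of replicate 2, 3.31, stood above the others by 0.894 of the range, and that array was also the highest of its group for Jchain, Pou2af1, Cd79b and Ms4a1. In C after PH the Ms4a1 level of replicate 1, -6.23, lay below the others by 0.841 of the range. In C before PH the Blnk level of replicate 1, -0.86, lay below the others by 0.833 of the range.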

How the results depend on the processing

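Alternative treatments of the same arrays gave 329 differences of members, of which 301 stayed the same, 12 became weaker, 4 stronger and 12 reversed in sign. Leaving out 1 array gave 392 more, of which 337 stayed, 19 became weaker, 4 stronger and 32 reversed. No value past the threshold was reversed.

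With normexp and quantile normalization, C+Fc-GLP-1 versus C before PH had 2454 genes and 2 members called, with Pou2af1 at -0.27. M+Fc-GLP-1 versus C+Fc-GLP-1 after PH had 1 member called and Blnk at -0.12, C+Fc-GLP-1 versus C after PH had 140 genes and 0 members, Ms4a1 was at 0.01 in C after versus before PH, and C+Fc-GLP-1 after versus before PH had 1296 genes. The split of called genes (higher/lower) was 411/677 in M+Fc-GLP-1 versus MCD after PH against 782/587, 59/81 in C+Fc-GLP-1 versus C after PH against 239/195, 1578/1300 in C after versus before PH against 1283/1659 and 379/917 in C+Fc-GLP-1 after versus before PH against 101/75.

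With each array centred on its median, C+Fc-GLP-1 versus C before PH had 1039 genes called, split 933/106 against 206/238, the median of all genes was 0.26 against -0.04, and Iglv1 was at 0.04. In MCD versus C after PH Iglv1 was at 0.08, Cd79b at 0.09 and the split 1438/886 against 1273/1282. Other splits were 468/673 in M+Fc-GLP-1 versus MCD after PH, 236/116 in C+Fc-GLP-1 versus C after PH, where Cd79a was at 0.00, 1614/896 in C after versus before PH, where 1 member (Pou2af1, 1.44, limma adjusted p = 0.0478) was called and Cd79b was at 0.15, and 53/91 in C+Fc-GLP-1 after versus before PH, where the median of all genes was -0.11, Cd79a was at -0.00 and Blnk at -0.10.

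With the authors' values, C+Fc-GLP-1 versus C before PH had 2108 genes and 2 members called, with Pou2af1 at -0.20. M+Fc-GLP-1 versus C+Fc-GLP-1 after PH had 1 member called and Blnk at -0.10, and C+Fc-GLP-1 versus C after PH had 193 genes, split 74/119, and 0 members. The split in M+Fc-GLP-1 versus MCD after PH was 525/857.

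With dim probes left in, M+Fc-GLP-1 versus MCD after PH had 769 genes called, M+Fc-GLP-1 versus C+Fc-GLP-1 after PH 0 members, C+Fc-GLP-1 versus C after PH 211 genes and 0 members, and C+Fc-GLP-1 after versus before PH 707 genes. The split was 147/560 in C+Fc-GLP-1 after versus before PH against 101/75, and 344/190 in C+Fc-GLP-1 versus C before PH against 206/238. Medians of all genes moved to 0.10 in MCD versus C after PH and in M+Fc-GLP-1 versus C+Fc-GLP-1 after PH, and to -0.19 and -0.15 after versus before PH in C and C+Fc-GLP-1.

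With only the arrays compared, C+Fc-GLP-1 versus C had 48 genes and 0 members called before PH and 88 genes and 0 members after PH. MCD versus C after PH had 1611 genes and M+Fc-GLP-1 versus MCD after PH 830 genes. M+Fc-GLP-1 versus C+Fc-GLP-1 after PH had 1 member, Iglv1, which is only described there. C after versus before PH had 1164 genes and C+Fc-GLP-1 after versus before PH 53 genes. The split was 9/39 in C+Fc-GLP-1 versus C before PH against 206/238, and 46/7 in C+Fc-GLP-1 after versus before PH against 101/75.

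The labels number replicates 1 to 4 in each group. Residuals of arrays with the same number had a mean r of 0.0173 over 112 pairs and those with different numbers -0.00529 over 336 pairs, ranging from -0.22 to 0.52 for the former and from -0.47 to 0.42 for the latter. Not every pair with the same number deviated together, which does not show that the samples were unpaired. In the main fit they were taken to share only a number. The sample codes of C and MCD before PH recur after PH with a suffix, so the same mice may have been sampled at both times. Of the 32 arrays, 18 were most like an array with their own number, more than numbers without meaning would be likely to give, which is a hint from the data and not from the design. With the replicate number as a block, 0 members were called in C+Fc-GLP-1 versus C after PH (Blnk adjusted p = 0.0506 in limma), and no other call of a member changed. The percentile over averaged probes, chosen after seeing the data, changed no count of members called.

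Leaving out each array in turn gave these ranges. C+Fc-GLP-1 versus C before PH had 198 to 486 genes and 0 to 1 members called, Cd79b from -0.11 to 0.30 and Pou2af1 from -0.05 to 0.44. C after versus before PH had 1529 to 3037 genes, Cd79a from -0.63 to 0.14, Cd79b from -0.25 to 0.42, Ms4a1 from -0.72 to 0.82 and Blnk from -0.06 to 0.60. C+Fc-GLP-1 after versus before PH had 19 to 160 genes and Blnk from -0.37 to 0.21.

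MCD versus C after PH had 1659 to 3003 genes and 1 to 2 members, Jchain from -0.03 to 1.00, Iglv1 from -0.40 to 0.77, Cd79a from -0.75 to 0.02, Cd79b from -0.46 to 0.21 and Pou2af1 from -0.60 to 0.16. C+Fc-GLP-1 versus C after PH had 182 to 370 genes and 0 to 1 members, Cd79a from -0.49 to 0.28, Ms4a1 from -0.18 to 1.36 and Pou2af1 from -0.67 to 0.09. M+Fc-GLP-1 versus C+Fc-GLP-1 after PH had 0 to 4 members, with Iglv1 counted though only described there, and Blnk from -0.22 to 0.44. M+Fc-GLP-1 versus MCD after PH had 691 to 1322 genes, Cd79a from -0.33 to 0.06 and Ms4a1 from -1.15 to 0.00.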
